A study of Mus musculus with 2 samples.

Results

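The genes described here encode the proteins that carry glucose into the cell, break it down to pyruvate, turn pyruvate into lactate and export it, or pass pyruvate into the mitochondrion. They are 39 genes chosen by symbol, out of 43346 mouse genes in the tables, and all 39 were found by gene identifier. They were measured by total RNA sequencing in the heart of B6NCrl mouse embryos at 11.5 days, in 1 group of 2 libraries, each made from a pool of hearts of both sexes. Replicate 1 came from 109 embryos, and the labels give no number for replicate 2. The embryos carry no engineered allele or treatment in the labels, and with 1 group no comparison between conditions can be made, so levels are given in each library and no p is given.

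Glycolysis splits a molecule of glucose into a pair of pyruvate molecules and yields ATP without oxygen. Its entry by hexokinase, the phosphofructokinase step and the last step by pyruvate kinase are the irreversible, regulated ones, while the enzymes between them work near equilibrium. Lactate dehydrogenase then regenerates the cofactor NAD+ that glycolysis consumes, and the pyruvate dehydrogenase complex, which is switched off by its kinases, sends pyruvate to the mitochondrial oxidation that the adult heart relies on. The embryonic heart is known as a tissue that draws much of its energy from glycolysis and lactate. Many steps are served by several isoenzymes, which are separate genes for the same reaction that differ in tissue and regulation.

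Levels are given in TPM, the abundance of transcripts corrected for their length and scaled to a fixed sum per library. A gene was counted as detected at 1 TPM or more in both libraries, and 2 isoenzymes were called apart where the same gene was at least 2-fold higher in both. The tables held 37617442 expected counts in replicate 1 and 27642765 in replicate 2, of which 34447169 and 25261719 fell in mouse genes. The 8 heart muscle markers examined were all at 100 TPM or more, from Nkx2-5 at 116 ± 1.20 TPM to Actc1 at 9392 ± 340.1 TPM (SD, n = 2). These are bulk samples, so a low level from few cells of a type and a low level per cell cannot be told apart.

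Of the 39 genes, 38 were detected, while 56.4% of the 21474 protein-coding genes were. The exception was Hk3, the hexokinase of blood cells. At 100 TPM or more in both libraries were 21 of the 39, beside 5.38% of protein-coding genes. The median of the 39 genes was 113 TPM in replicate 1 and 132 TPM in replicate 2 (122 ± 13.1, SD, n = 2), beside 15.9 TPM over the 12118 detected protein-coding genes. The 19 enzymes of the glycolytic steps had a median of 215 TPM, the 4 lactate genes 302 TPM, the 9 genes of pyruvate handling 113 TPM, the 3 glucose transporters 22.3 TPM and the 4 regulatory PFK-2/FBPase-2 genes 5.62 TPM. Together the 39 genes held 1.58% of all TPM in replicate 1 and 1.71% in replicate 2.

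**Figure D1:**
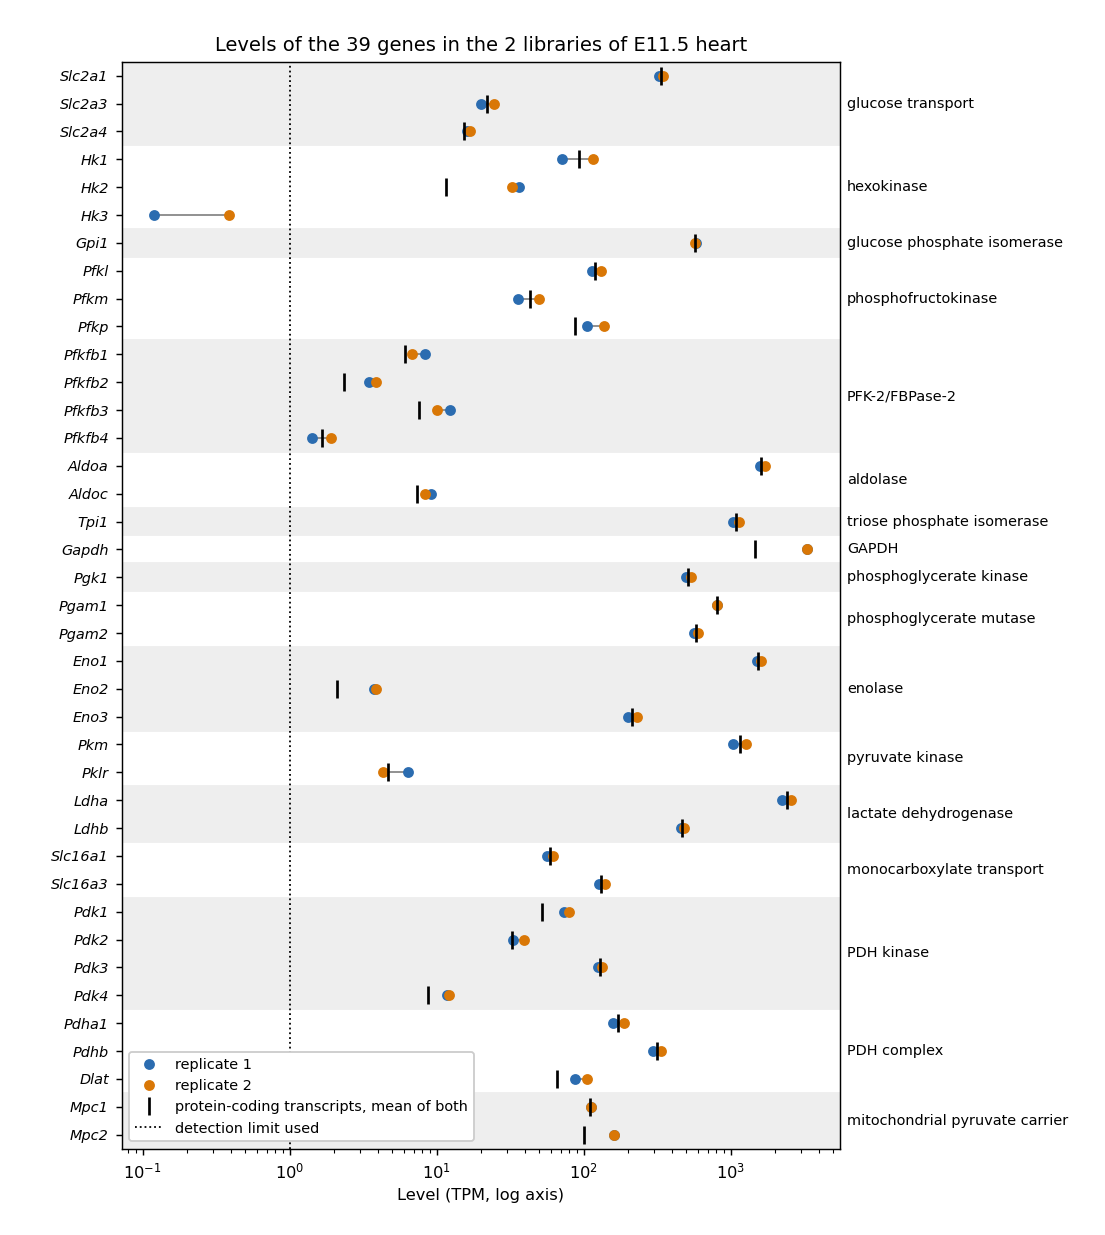
Level of each of the 39 genes in TPM on a log axis, grouped by step, with replicate 1 in blue, replicate 2 in orange and the mean of the protein-coding transcripts as a black bar (none for Hk3, which is at 0). Levels run from Hk3 at 0.12 and 0.39 TPM to Gapdh at 3312 and 3292 TPM, and the black bar lies far left of the points for Gapdh and Hk2.

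Transcripts for glucose uptake came mostly from Slc2a1, which encodes GLUT1, the basal transporter of embryonic tissues. Slc2a1 (chr4:119108711-119137983) measured 327 TPM in replicate 1 and 349 TPM in replicate 2, which was 89.7% ± 0.429 of the summed TPM of the 3 transporters. Slc2a3, the high-affinity GLUT3 best known from neurons, measured 20.1 and 24.4 TPM. Slc2a4, the insulin-responsive GLUT4 of adult heart and skeletal muscle, measured 16.1 and 16.8 TPM. Slc2a1 thus stood 15.2-fold above Slc2a3 and 20.5-fold above Slc2a4, both apart, while Slc2a3 and Slc2a4 differed by 1.35-fold and were not called apart.

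Hexokinase traps glucose in the cell as glucose 6-phosphate, and its summed level was the lowest of the steps from hexokinase to pyruvate kinase, at 108 TPM in replicate 1 and 149.8 TPM in replicate 2. Hk1, the widely expressed form, measured 71.7 and 117 TPM. Hk2, the form of insulin-sensitive muscle, measured 36.6 and 32.8 TPM. The ratio of Hk1 to Hk2 had a log2 of 0.97 in replicate 1 and 1.83 in replicate 2, so the pair fell just short of the 2-fold rule in replicate 1.

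The Hk2 level rested on a short transcript. A processed transcript of 594 bases, which lies wholly within the exons of the leading coding Hk2 transcript, was assigned 16.7% of the gene's counts in replicate 1 and 14.2% in replicate 2. Because TPM divides by length, the same counts made up 68.7% and 64.4% of the gene's TPM. With protein-coding transcripts only, a setting chosen after the data were seen, Hk2 measured 11.4 and 11.7 TPM, and Hk1 stood 7.85-fold above it and was apart. Hk3 (chr13:55005985-55021385) had 10 counts in replicate 1 and 22 in replicate 2, nearly all assigned to a transcript annotated for nonsense-mediated decay. By posterior mean TPM the same transcript held 7.75% of the gene in replicate 1 and 9.18% in replicate 2, so that assignment is uncertain.

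Gpi1, the isomerase that makes fructose 6-phosphate, measured 579 and 570.1 TPM. Phosphofructokinase, the step that commits sugar to glycolysis, came next in the pathway at a summed 255 and 319 TPM. Pfkl, the liver-type subunit, measured 114 and 132 TPM, and Pfkp, the platelet-type subunit, measured 105 and 137 TPM. They held 42.9% ± 2.41 and 42.2% ± 1.29 of the step and traded places between the libraries. Pfkm, the subunit that dominates in adult muscle, measured 35.9 and 50.04 TPM, 2.88-fold below Pfkl and 2.84-fold below Pfkp, both apart. Over protein-coding transcripts Pfkp stood 2.05-fold above Pfkm and no longer met the rule in both libraries. Pfkp shares 748 exon bases on the opposite strand with Pitrm1, and Pfkm shares 18 with Senp1. The strand setting is not given in the sources used here, so reads in those bases cannot be told apart. The same holds for each of the 14 members whose exons overlap an opposite-strand gene. By share of exon bases Mpc1 (23.05%), Pklr (21.97%), Pdha1 (16.15%) and Gpi1 (11.48%) stood highest, and each had more counts than its opposite-strand gene.

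The PFK-2/FBPase-2 enzymes make and break fructose 2,6-bisphosphate, the strongest activator of phosphofructokinase. All 4 were low, with a summed level of 25.5 TPM in replicate 1 and 22.7 TPM in replicate 2. Pfkfb3, the form with the highest kinase activity, measured 12.3 and 10.1 TPM and held 46.4% ± 2.73 of the sum. Pfkfb1, the liver and muscle form, measured 8.30 and 6.80 TPM. Pfkfb2, the form of adult heart, measured 3.47 and 3.90 TPM. Pfkfb4, known from testis, measured 1.41 and 1.90 TPM. Pfkfb3 and Pfkfb1 differed by 1.49-fold and were not apart, and Pfkfb1 and Pfkfb2 were not apart either, with a log2 ratio of 1.26 in replicate 1 and 0.80 in replicate 2. Pfkfb1 and Pfkfb2 changed order when expected counts were used without length, at a mean log2 ratio of -0.05. Pfkfb2 overlaps the opposite-strand gene Yod1 over 154 exon bases, and Yod1 had more counts than Pfkfb2 in both libraries (1406 against 298 and 584 against 230). Pfkfb1 likewise overlaps Apex2 over 123 exon bases, and Apex2 had 766 and 529 counts against 327 and 196 for Pfkfb1.

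The next steps split the sugar and begin to draw ATP from it. Aldoa, the muscle-type aldolase, measured 1574 and 1709 TPM and held 99.5% ± 0.0687 of its step. Aldoc, the brain-type aldolase, measured 9.21 and 8.32 TPM, 187-fold lower. Tpi1, which interconverts the triose phosphates, measured 1043 and 1141 TPM, and Pgk1, which makes the first ATP of the pathway, measured 495 and 537 TPM. The summed levels of the neuronal markers examined were 31.0 and 32.4 TPM, beside Aldoc and Slc2a3, and their part in those levels was not tested.

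Gapdh, which oxidises the triose phosphate and reduces NAD+, had the highest level of the 39 genes at 3312 and 3292 TPM, rank 17 among protein-coding genes. That rank depends on 1 short transcript. A processed transcript of 483 bases was assigned 26.8% of the gene's counts in replicate 1 and 26.4% in replicate 2, and 55.3% and 54.9% of its TPM. The leading coding transcript, of 1420 bases, held 38.6% and 41.3% of the TPM. All bases of the short transcript lie within the exons of the coding one, from which it differs inside by skipping the last 65 bases of exon 3. Over protein-coding transcripts Gapdh measured 1456 and 1469 TPM, rank 48, below Ldha, Aldoa and Eno1. The skipped stretch is shown because reads across it can separate these transcripts, as can reads in bases of the longer one beyond the ends of the shorter. It lies at chr6:125163139-125163203 (mm10, minus strand), is in capitals, and follows 20 bases in lower case that both transcripts share.

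Gapdh exon 3 stretch: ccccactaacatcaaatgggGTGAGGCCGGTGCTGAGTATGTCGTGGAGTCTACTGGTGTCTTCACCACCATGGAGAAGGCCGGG

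Phosphoglycerate mutase and enolase are the steps between 3-phosphoglycerate and phosphoenolpyruvate. Pgam1, the brain-type mutase found in most tissues, measured 801 and 812 TPM. Pgam2, the muscle-type mutase, measured 559.7 and 599.8 TPM and held 41.8% ± 0.952 of the step. These genes have 1 transcript each in the tables, differed by 1.39-fold, and were not called apart. By counts without length Pgam1 stood above Pgam2 by a log2 ratio of 1.70, since its transcript is 1831 bases long and that of Pgam2 840.

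Eno1, the widely expressed enolase, measured 1521 and 1599 TPM and held 87.7% ± 0.692 of its step. Eno3, the muscle enolase, measured 199.9 and 231 TPM, or 12.1% ± 0.697. Eno2, the neuronal enolase, measured 3.78 and 3.89 TPM. A retained intron form held 42.7% of the Eno2 TPM in replicate 1 and 40.0% in replicate 2, and a protein-coding form 26.8% and 50.4%, so the leading form differed between the libraries. All 3 enolase pairs were apart, with Eno1 7.27-fold above Eno3 and 407-fold above Eno2. Beside Pgam2 and Eno3, the 8 skeletal muscle markers examined summed to 458 TPM in replicate 1 and 472 TPM in replicate 2. Of that sum Acta1, an actin that the embryonic heart also expresses, made up 409 and 429 TPM. Mylpf (25.7 and 18.2 TPM), Tnnt3 (11.8 and 12.1), Ckm (6.67 and 8.12) and Myog (2.74 and 3.09) were detected too. Myod1 (1.14 and 0.65 TPM), Myf5 and Myf6 were below detection, and Myf6 had 0 counts in both libraries. The part of skeletal muscle cells in the levels of Pgam2 and Eno3 was not tested.

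Pkm, the pyruvate kinase of muscle and most embryonic tissues, measured 1042 and 1268 TPM, and Pklr, that of liver and red cells, 6.36 and 4.33 TPM. Pkm stood 219-fold above Pklr. Pkm (chr9:59656368-59679375, plus strand) makes a pair of enzymes by choosing between mutually exclusive exons. The M1 form is constitutively active and known from adult muscle, and the M2 form can be regulated and is known from embryonic and dividing cells.

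Both forms were abundant in the E11.5 heart, with the M1 form slightly ahead. The M1 transcript measured 553 TPM in replicate 1 and 708 TPM in replicate 2, which was 53.1% and 55.9% of Pkm (54.5% ± 1.98, SD, n = 2). The M2 transcript measured 489 and 559 TPM, which was 46.9% and 44.1%. The M1 form was the higher in both libraries, and the order of the libraries was the same for both forms. The tables list no other Pkm transcript.

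The alternative exon is number 9 of 11 in either transcript by the later annotation. The M1 exon lies at chr9:59675029-59675195 and the M2 exon at chr9:59675568-59675734 (mm10, plus strand), 372 bases apart. Both are 167 bases long and they differ at 64 positions, 61.7% being identical. They are shown because the reads over them decide the split, with the differing bases in capitals:

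M1 exon: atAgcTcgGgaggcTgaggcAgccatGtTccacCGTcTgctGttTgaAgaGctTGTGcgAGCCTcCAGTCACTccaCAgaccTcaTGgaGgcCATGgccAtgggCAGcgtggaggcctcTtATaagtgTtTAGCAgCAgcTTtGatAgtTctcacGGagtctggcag

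M2 exon: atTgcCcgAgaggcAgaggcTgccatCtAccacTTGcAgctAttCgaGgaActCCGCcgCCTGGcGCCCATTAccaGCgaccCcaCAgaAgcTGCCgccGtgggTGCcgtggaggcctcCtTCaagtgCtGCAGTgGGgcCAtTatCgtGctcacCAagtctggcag

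**Figure D2:**
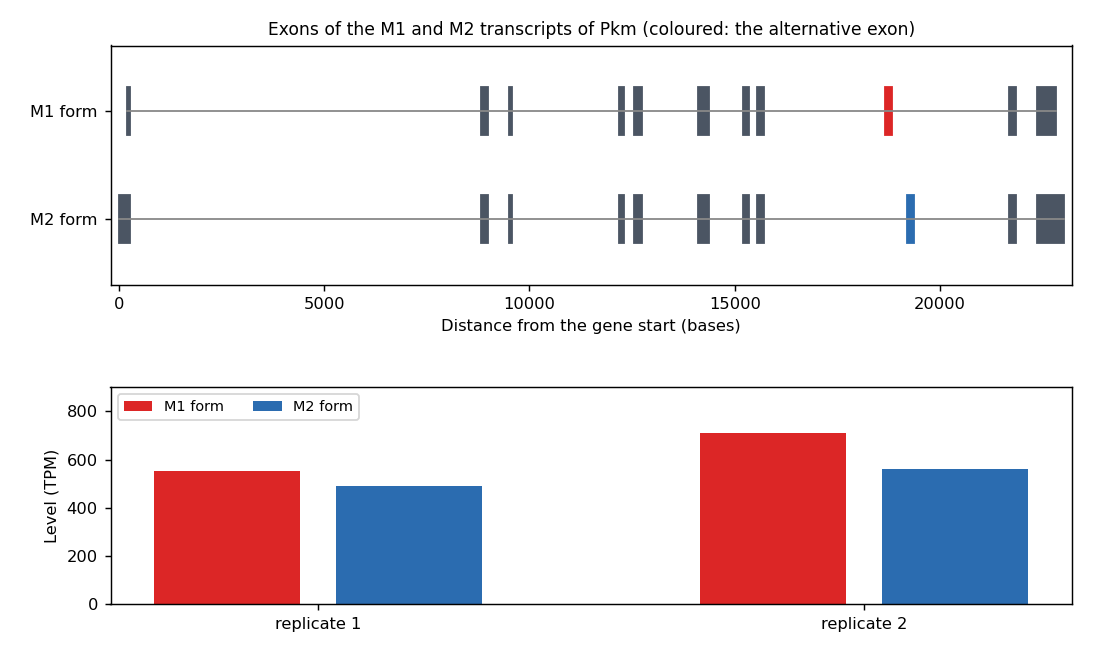
Top, exons of the M1 and M2 transcripts of Pkm by distance in bases from the gene start, with the alternative exon in red (M1) or blue (M2). Bottom, level of each form in TPM in each library: the M1 form, at 553 and 708 TPM, is above the M2 form, at 489 and 559 TPM, in both.

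Set side by side, the step sums ran from hexokinase (129 ± 29.2 TPM) and phosphofructokinase (287 ± 45.3) through phosphoglycerate kinase (516 ± 29.8) and glucose phosphate isomerase (574 ± 5.98) to the remaining steps, all above 1000 TPM. Triose phosphate isomerase (1092 ± 69.03) and pyruvate kinase (1160 ± 158) overlapped between libraries. Above them came phosphoglycerate mutase (1386 ± 36.4), aldolase (1650 ± 94.6) and enolase (1779 ± 76.8), whose library values did not overlap. GAPDH stood highest at 3302 ± 13.8 TPM over all transcripts but at 1462 TPM over protein-coding ones, which is between phosphoglycerate mutase and aldolase.

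Lactate dehydrogenase was second to GAPDH over all transcripts and the highest step over protein-coding ones, at a summed 2691 and 3061 TPM. Ldha, the subunit that favours making lactate, measured 2235 TPM in replicate 1 and 2578 TPM in replicate 2 and held 83.6% ± 0.823 of the step. Ldhb, the subunit that dominates in adult heart and favours lactate use, measured 456 and 483 TPM. Ldha was 5.11-fold above Ldhb, and the pair was apart under each alternative run. At rank 25 among protein-coding genes by all transcripts, and 20 by coding transcripts, Ldha was the highest of the 39 genes on the latter scale.

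Lactate leaves the cell through monocarboxylate transporters that need the chaperone basigin. Slc16a3, the export-type transporter MCT4, measured 128 and 139 TPM. Slc16a1, the widespread MCT1, measured 56.2 and 62.3 TPM. Slc16a3 stood 2.25-fold above Slc16a1 per length, while counts without length put the pair near equality at a log2 ratio of 0.09. Bsg, which encodes basigin, measured 907 and 926 TPM.

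The promoters of the lactate dehydrogenase genes are shown because this pair was apart and carries the highest protein-coding level of any step. The letters ACGTG, on either strand, are a form of the core of the element that the hypoxia factor HIF1 binds, and are in capitals. Other forms of that core were not searched, and the letters GCGTG, which the Ldhb window holds, are not marked. The sequences are the 250 bases before the annotated start in RefSeq (GRCm38.p6): Ldha at chr7:46845554-46845803 on the plus strand, whose start lies 35 bases from that of the leading transcript, and Ldhb at chr6:142507958-142508207 on the minus strand.

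Ldha promoter: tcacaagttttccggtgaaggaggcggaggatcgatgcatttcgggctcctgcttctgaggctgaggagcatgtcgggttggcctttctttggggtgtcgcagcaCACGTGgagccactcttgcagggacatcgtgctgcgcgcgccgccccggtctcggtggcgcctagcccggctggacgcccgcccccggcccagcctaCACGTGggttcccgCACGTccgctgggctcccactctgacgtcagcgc

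Ldhb promoter: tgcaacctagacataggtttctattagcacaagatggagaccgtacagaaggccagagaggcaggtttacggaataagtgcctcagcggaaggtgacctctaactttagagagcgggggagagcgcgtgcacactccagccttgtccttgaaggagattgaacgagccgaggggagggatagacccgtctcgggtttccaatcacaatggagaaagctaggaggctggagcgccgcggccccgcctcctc

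The Ldha window held 3 such stretches and the Ldhb window 0. The palindrome CACGTG in the Ldha window holds the motif on each strand. A second Ldha promoter in the same table held 0. Over the windows of 250 bases before to 50 after a start, the table has 58 promoters for 37 of the 39 genes (none for Slc2a3 and Slc2a4), and 23 of them (39.7%) hold ACGTG, in 19 genes. The share was 19.6% in all 32851 promoters and 24.4% in promoters of like base composition, at 53.8% to 65.6% G and C. That range lies between the lower and upper quartiles of the member promoters. The 39.7% also covers member promoters outside it, so it and the 24.4% are shares of unlike sets. A match of 5 letters describes the sequence and is not a measured binding site.

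**Figure D3:**
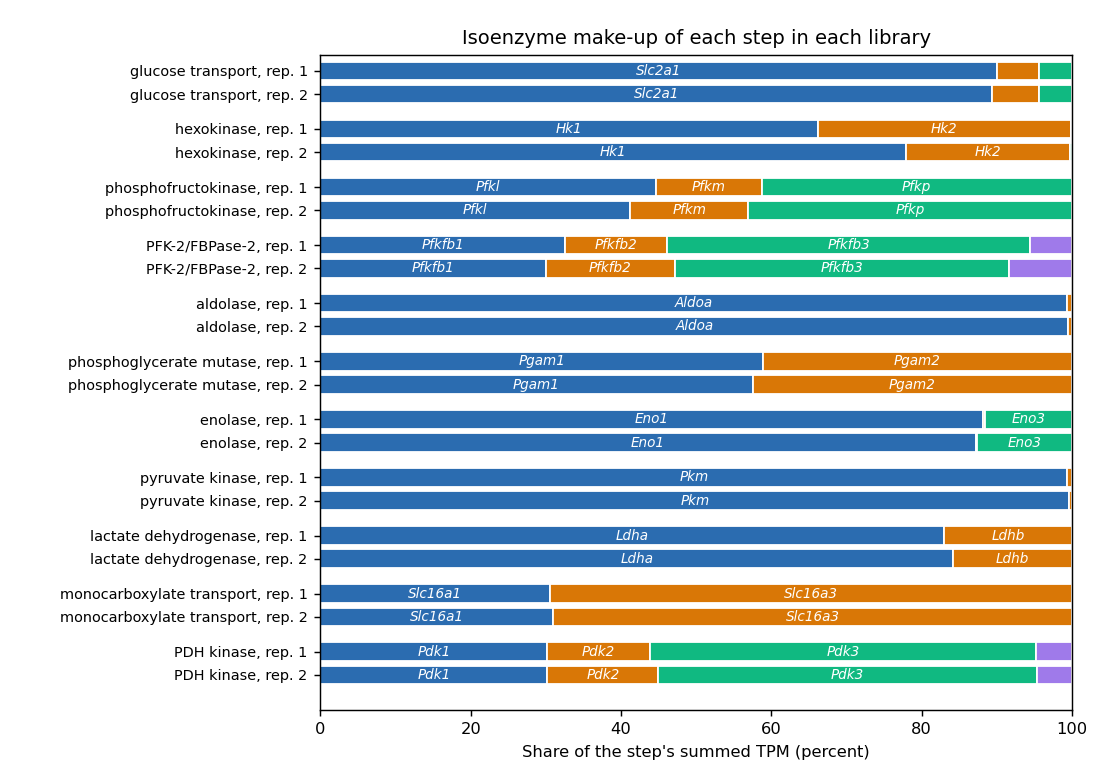
Share of each step's summed TPM held by each isoenzyme in each library, in percent, for steps with alternatives. Unlabelled segments are, from left to right in their bars, Slc2a3 and Slc2a4, Hk3, Pfkfb4, Aldoc, Eno2, Pklr and Pdk4; the bars of both libraries look alike except for hexokinase, where Hk1 holds 66.2% and 77.9%.

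Pyruvate enters the mitochondrion through a carrier made of Mpc1 and Mpc2. Mpc1 measured 113 and 112 TPM, and Mpc2 measured 161 TPM in either library. Over protein-coding transcripts Mpc2 measured 102 and 99.9 TPM, because a processed transcript of 493 bases held 36.5% ± 1.39 of its TPM. Inside, the pyruvate dehydrogenase complex makes acetyl-CoA. Its subunits Pdha1 and Pdhb, which form the decarboxylase, measured 159 and 188 TPM and 296 and 334 TPM, and Dlat, the core acetyltransferase, 87.9 and 106 TPM. Over protein-coding transcripts Dlat measured 60.6 and 72.2 TPM. The partners of the complex were present as well, with Dld at 174 ± 10.6 TPM and Pdhx at 39.8 ± 5.34 TPM.

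The kinases that switch the complex off were led by Pdk3 at 125 and 134 TPM, 50.9% ± 0.634 of their sum. Pdk1, the kinase gene best known as a target of HIF1, measured 73.6 and 80.1 TPM. Pdk2 measured 33.3 and 39.1 TPM. Pdk4, the kinase induced by fasting and fat use in adult heart, was lowest at 11.7 and 12.2 TPM. Of the 6 kinase pairs 5 were apart. The exception was Pdk3 and Pdk1, at log2 ratios of 0.77 and 0.74 per length, and counts without length put Pdk1 ahead with a mean of -0.28. The summed level of the kinases was 254 ± 15.1 TPM and that of the 3 subunits of the complex 586 ± 60.4 TPM.

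Across all steps, 22 of the 29 isoenzyme pairs were apart. The 7 others were Slc2a3 and Slc2a4, Hk1 and Hk2, Pfkl and Pfkp, Pfkfb1 and Pfkfb2, Pfkfb3 and Pfkfb1, Pgam1 and Pgam2, and Pdk3 and Pdk1. In 28 of the 29 the same gene was higher in both libraries at any fold, with Pfkl and Pfkp as the exception. The share among pairs of other genes was not computed, so these counts describe the listed pairs alone.

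Several transcripts were listed for 34 of the 39 genes. The leading transcript was the same in both libraries in 32 of them, Pfkm and Eno2 being the exceptions. In both libraries alike, it exceeded 50% of its gene's TPM in 29 genes and 90% in 14. Of the 33 detected members with several transcripts, 2 (Hk2 and Gapdh) had a leading transcript not annotated as protein-coding in both libraries, beside 6.75% of 8845 detected protein-coding genes, and so did Hk3, which was not detected. Protein-coding transcripts held under 90% of the TPM in both libraries in 13 genes: Hk2, Hk3, Pfkp, Pfkfb1, Pfkfb2, Pfkfb3, Gapdh, Eno2, Pklr, Pdk1, Pdk4, Dlat and Mpc2. For the counts at 50% and 90%, shares over all genes were not computed, so they describe the listed genes alone.

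Near-identical copies share reads with some of these genes, so the counts of those genes are uncertain by the copies' share. At 90% identity or more, 190 other annotated genes matched a member, 170 of them processed pseudogenes, and they held 11542 counts in replicate 1 and 8113 in replicate 2, or 1.67% and 1.51% of the members' own counts. Gapdh had 159 such copies, with counts equal to 6.93% and 7.07% of its own. Among them is the protein-coding gene Peli2, of which a transcript met the match rule. All its counts, 393 and 306, are included here and in the total. Pgk1-rs7, 100% identical to Pgk1 over the match, took counts equal to 13.8% and 12.3% of those of Pgk1. Mpc1-ps, at 99.7% identity, took 12.2% and 11.4% of those of Mpc1. For Eno1 the share was 1.83% and 1.57%, and for Pgam1 2.24% and 2.28%. In the other members with copies it was under 1%.

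Genes around the pathway were counted from lists, of which the 3 highest and those below detection are named. Beside each count of detected genes stands the 56.4% of all protein-coding genes that were detected. Of 19 further isoenzymes and related genes of the same steps 7 were detected. They were led by the mitochondrial phosphatase Pgam5 (42.9 ± 5.83 TPM), the ADP-dependent glucokinase Adpgk (20.7 ± 0.233 TPM) and the intracellular transporter Slc2a8 (9.26 ± 0.644 TPM). Those below detection included the liver transporter Slc2a2, the fructose transporter Slc2a5, Hkdc1, Aldoart1, Aldoart2, Gapdhs, Pgk2, Eno4, Ldhc, Ldhd and Slc16a8. Pgk2 and Ldhc, the isoenzymes of sperm, had 0 counts in both libraries, which allows a level of up to 0.0871 CPM in replicate 1 and 0.119 CPM in replicate 2 (3 counts among those of mouse genes, counting error only).

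Glycogen genes were detected in 10 of 10 cases, with Gyg, the primer of glycogen synthesis, at 602 ± 22.7 TPM, Pgm1, which links glycogen to glycolysis, at 215 ± 16.8 TPM, and Ugp2, which makes UDP-glucose, at 145 ± 15.9 TPM. Of 7 pentose phosphate genes 6 were detected, led by Taldo1 at 207 ± 3.42 TPM, Pgls at 139 ± 5.00 TPM and Pgd at 27.6 ± 0.184 TPM, with Rpia below detection at 1.17 and 0.52 TPM. Gluconeogenesis, which runs the pathway backwards in liver and kidney, had 2 of 6 genes detected, G6pc3 at 20.9 ± 0.453 TPM and the mitochondrial Pck2 at 14.0 ± 1.42 TPM. Its liver genes G6pc and Pck1 had 0 counts in both libraries, Fbp1 had 0 and 1, and Fbp2 had 3 and 1.

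Genes of the shuttles that carry glycolytic reducing power into the mitochondrion, listed together with genes of side reactions such as Bpgm and Tigar, were detected in 11 of 12 cases. Mdh1 and Mdh2, the cytosolic and mitochondrial malate dehydrogenases, measured 1021 ± 48.8 and 715 ± 15.4 TPM, and the carrier Slc25a11 172 ± 13.3 TPM, while Gpd1, of the glycerol phosphate shuttle, was below detection at 0.46 and 0.45 TPM. Over protein-coding transcripts the mean was 871 TPM for Mdh1 and 481 TPM for Mdh2. All 11 partners of pyruvate handling were detected. Of 13 regulators 12 were detected, led by Hif1a (143 ± 12.9 TPM), the glucose-responsive Txnip (83.2 ± 7.88 TPM) and the AMP kinase subunit Prkaa2 (32.4 ± 5.52 TPM). For Txnip the mean over protein-coding transcripts was 59.8 TPM. Mlxipl, the carbohydrate-responsive factor of liver, was below detection at 0.62 and 0.40 TPM.

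The libraries were compared with each other by the log2 ratio of counts scaled by TMM, replicate 1 over replicate 2, with a 95% exact (Clopper-Pearson) counting interval. With 1 library on either side this compares libraries and carries no p. Of the 39 genes, 3 differed by 1.5-fold or more, beside 14.5% of the 16621 genes with a summed count of 20 or more, 7.23% of those at a mean of 1 TPM or more, and 1.52% of those at 50 TPM or more. At 2-fold, Hk3 alone remained, beside 6.08% of genes.

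Hk1 (chr10:62268855-62379908) was the 1 well-expressed member to differ. It had 8159 counts in replicate 1 and 9267 in replicate 2 and was 1.56-fold higher in replicate 2, at a log2 ratio of -0.64 (interval -0.68 to -0.59). Genes at least 4000 bases long, as Hk1 is, had a median log2 ratio of -0.06 over 2577 genes at 1 TPM or more. Its leading transcript, of 4278 bases, held 75.3% of its TPM in replicate 1 and 68.8% in replicate 2, and the next, of 3639 bases and also coding, held 21.7% and 29.3%.

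Pklr (chr3:89136142-89146784) was 1.54-fold higher in replicate 1, with 438.9 and 207.8 expected counts and a log2 ratio of 0.62 (interval 0.38 to 0.87). All 8 liver and yolk sac markers examined were 1.5-fold or more higher in replicate 1 too, with a summed level of 255 TPM in replicate 1 and 70.7 TPM in replicate 2. The red blood cell markers, of which 7 of 8 were found, summed to 45346 and 38153 TPM. The part of either cell type in the level of Pklr was not tested. Pklr shares 711 exon bases, 21.97% of its own, with the opposite-strand gene Hcn3, which had 10.1 and 16.2 counts. Hk3 was 2.93-fold higher in replicate 2, on 10 and 22 counts, with a log2 ratio of -1.55 (interval -2.83 to -0.45). It shares 34 exon bases with the opposite-strand gene Unc5a, which had 196 and 144 counts. The 6 macrophage markers, beside Hk3, summed to 80.4 and 86.6 TPM, and their part in its level was not tested. Shares of all genes past 1.5-fold were 9.7% with replicate 1 higher and 4.84% with replicate 2 higher.

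Of the 36 members under that fold, 28 had a log2 ratio below 0, that is higher in replicate 2. Over all 39 it was 30, with a median of -0.08, beside a median of -0.02 in detected protein-coding genes, of which 6595 of 12116 were below 0. The 4 lactate genes were all below 0, and of the 19 glycolytic enzymes 14 were. After Hk1, Pklr and Hk3, the members farthest from 0 were Pfkm at -0.43, Pfkfb4 at -0.39, on 130 and 124 counts, and Pfkp at -0.35.

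**Figure D4:**
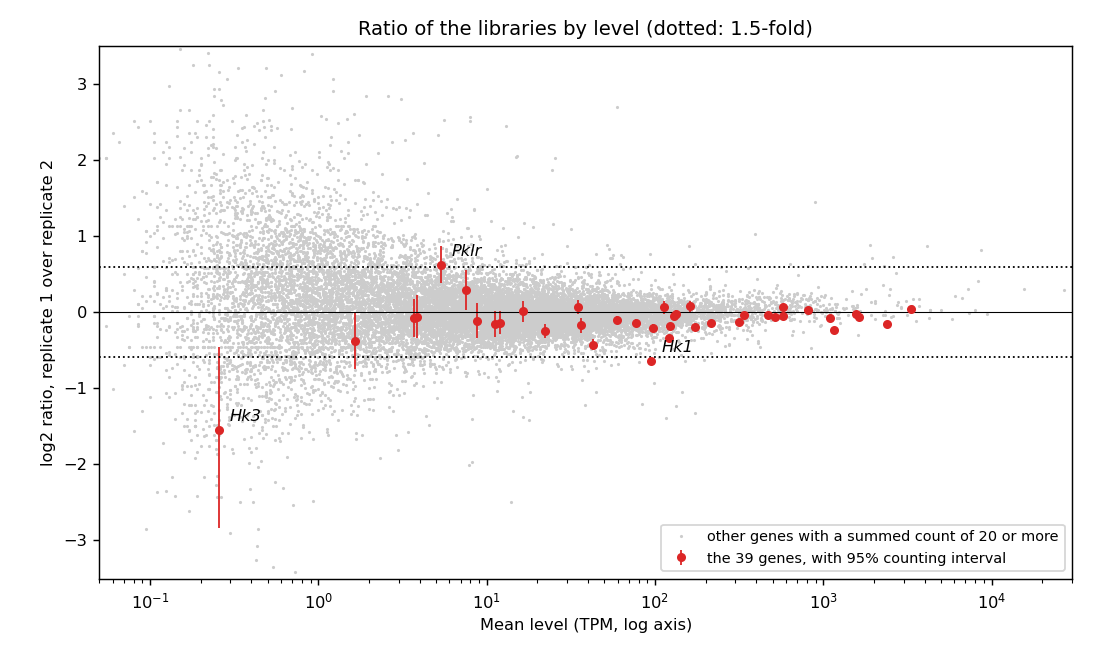
Log2 ratio of replicate 1 to replicate 2 against mean level in TPM (log axis) for the 39 genes (red, with 95% counting intervals) and other genes with a summed count of 20 or more (grey, 54 beyond the axes), with dotted lines at 1.5-fold. Hk1 and Hk3 lie below the lower line and Pklr above the upper one.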

How the data were processed

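Total RNA of E11.5 heart was sequenced in 2 libraries, which the labels give as biological replicates from separately recorded biosamples; the SD rests on that alone. Per the labels, 10 ng of RNA went into each library and spike-in RNAs were added. Per the file headers, the authors deposited expected counts (estimated reads, not normalized), TPM, posterior mean TPM and each transcript's percent of its gene. The deposited README texts name mm10 and annotation M4. The aligner, the quantifier and the strand setting were not given in the sources used here. Symbols and coordinates came from GENCODE M21 on the same assembly, where 98.0% of mouse gene identifiers matched.

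The members and lists were chosen with earlier results of these data known. All members are named, and of related lists the 3 highest by mean TPM and any below 1 TPM, except for 1 gene that is not reported here. TPM was used as deposited, without a pseudocount. Expected counts were rounded and scaled by TMM in edgeR 4.0.16 (R 4.3.3) for the ratio between libraries, with a prior count of 0.5. The ratio and its interval were tested on simulated data that held counting error only. Those data were scaled by library totals, so the TMM scaling itself was not tested. Copies were found with blastn 2.17.0 over at least 0.5 of the copy's length. Alternatives included DESeq2 1.42.0 size factors. With 2 libraries the smallest exact sign-flip p is 0.5, so no test was made.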

Additional observations from a re-analysis of the deposited data

How the results depend on the processing

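No paired analysis was possible because the series has 1 group, and leaving out a library cannot be applied to the ratio between libraries. Detected members numbered 38 under each alternative except the limit of 5 TPM, which gave 34. Members at 100 TPM or more numbered 19 to 23 and pairs apart 20 to 28. The highest of these pair counts drops the 2-fold rule and takes any fold with the same gene higher in both libraries. The lowest of these pair counts was over protein-coding transcripts, where Hk1 and Hk2 have no ratio to Hk3 and those pairs were counted as not apart. The median of the members moved to 107 TPM with protein-coding transcripts only, a setting added after the data were seen, and to 167.0 TPM when TPM was rescaled over mouse genes without the 10 globin and 37 mitochondrial genes. Leaving out 1 library gave 113 to 132 TPM. The 3 members that differed between the libraries became 1 at a fold of 2 and 2 with protein-coding transcripts only, where Hk3 has no counts. Near-identical copies fell from 190 to 84 at 95% identity. The M1 share of Pkm was 53.1% to 55.9% without either library. No called pair changed direction. The rule of 2-fold in both libraries was met by Hk1 over Hk2 at a log2 ratio of 2.29 by counts, 1.43 by posterior mean TPM and 2.97 over protein-coding transcripts. It was no longer met by Pfkfb2 over Pfkfb4 (0.51), Pdk1 over Pdk2 (0.68) and Pfkp over Pfkm (1.03) over protein-coding transcripts, nor by Slc16a3 over Slc16a1 (0.09), Pfkfb1 over Pfkfb4 (1.00) and Pfkfb2 over Pfkfb4 (1.04) by counts, nor by the last pair with 1 added to each TPM (0.82). It was met by Pgam1 over Pgam2 (1.70) by counts and by Pdk3 over Pdk1 (1.31) and Pfkfb1 over Pfkfb2 (1.39) over protein-coding transcripts. Lengths differ between annotations, since 245 of 259 member transcripts kept theirs in M21.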
